A study of Drosophila melanogaster with 12 samples.

Results

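Cytosolic ribosomal protein genes of *Drosophila melanogaster* were followed in wing imaginal discs that had been cut or left intact and were then cultured in adult females. The members are genes whose current symbol begins with RpL or RpS and a number, or with RpLP and a number. On these arrays 39 such genes had a probe with a single gene symbol, out of 12058 genes in all, and 48 probes stood behind them. The Release 6 gene table holds 92 genes that follow the same rule, 54 of the large subunit and 38 of the small subunit, and the 53 others were not analysed here. Among those are both *RpS14* copies, *RpS5a*, *RpS10b*, *RpS15Aa*, *RpS19a*, *RpL34b*, *RpL22* and *RpL24*, while 5 probes name *RpL15* together with *Dbp80* and were left out. The members are 23 genes of the large subunit and 16 of the small subunit, and 4 of them have a symbol that ends in -like.

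The discs came from larvae of the third instar of the isogenic line w118iso; 2iso; 3iso of the labels, an allele that the study's methods write as w1118, from the DrosDel collection. Cut discs (C) had lost a posterior sector of 90°, so that an anterior fragment remained, and intact discs (NC) were whole. Newly emerged adult females of Canton S at 25 °C were the hosts in which cut and intact discs alike were cultured. RNA of cut discs was taken at 0, 24 and 72 hours and RNA of intact discs at 0 and 24 hours, and each array set a later against an earlier time. The comparisons are C0→C24 for early regeneration, C24→C72 for late regeneration and NC0→NC24 for the effect of implantation. Each has 2 biological replicates, hybridized with the dyes in both orientations (A and B), which gives 4 arrays a comparison. No array set cut against intact discs. RNA of cut discs at 24 hours entered both C0→C24 and C24→C72, as the later time in the first and the earlier time in the second. A deviation of that RNA alone would thus move a gene in opposite directions in C0→C24 and C24→C72.

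Cytosolic ribosomal proteins assemble with ribosomal RNA in the nucleolus into a large and a small subunit, which join on the messenger RNA to make protein. Nearly every protein occurs once in each ribosome, and flies that lack a copy of many of these genes are Minutes, which grow slowly and whose cells are eliminated beside wild-type cells in the wing disc. Their messenger RNAs belong to the terminal oligopyrimidine class, whose translation follows TOR activity, and Myc, M1BP and Dref act on the transcription of genes for ribosome production. Some proteins have more than one gene copy in flies, and copies are often used in the germ line. A few genes that carry a ribosomal protein name are relatives of yeast assembly factors and not parts of the mature ribosome.

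All values below compare RNA at the later time with RNA at the earlier time as a log2 ratio, so that 1 is a doubling. The base and the direction of the deposited ratios are not stated. Base 2 was assumed, and later over earlier is the likely direction, since genes that the study lists as higher or lower in cut discs carry those signs here. With the other direction every sign would turn. In such bulk samples fewer cells of a type and less RNA per cell cannot be told apart. A gene was called, and is said to have risen or fallen, where the Benjamini-Hochberg adjusted p of limma over all 12058 genes was under 0.05 and the change was at least 1.5-fold. The dye-swapped arrays of a replicate were averaged first, so each fit rests on 2 replicate means a comparison and on a spread shared by the 3 comparisons. Counts at an unadjusted p under 0.05 within the 3 comparisons have no share of all genes beside them, so they cannot be set against other genes. Values of single arrays are given for replicate 1 in orientations A and B and then for replicate 2 in orientations A and B.

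The clearest movement of these genes was in late regeneration. In C24→C72 9 of the 39 genes fell, which is 23.1% of them, where 1.58% of all genes were called lower. Only *RpL24-like* rose, where 1.36% of all genes were called higher. The median change of the 39 genes was -0.28, against 0.03 over all genes, and 30 of the 39 had a value below 0, against 44.1% of all genes. On all 4 arrays 19 of the 39 were below 0 and 5 were above 0, while over all genes these shares were 11.4% and 16.8%. In C0→C24 1 rose and 2 fell, with 6.12% of all genes called higher and 4.94% called lower, and in NC0→NC24 2 rose and 2 fell, with 5.14% and 3.85%. The low counts of the first 24 hours depend on the fold threshold. At an adjusted p under 0.05 alone, 7 of the 39 were higher and 7 lower in C0→C24, where 13.9% of all genes were higher and 12.9% lower. In C24→C72 2 were higher and 10 lower, with 5.36% and 3.73% of all genes, and in NC0→NC24 6 were higher and 10 lower, with 12.0% and 10.3%. In none of the 3 comparisons were 25 of the 39 called, and the share of all genes called in none is not given here.

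**Figure D1:**
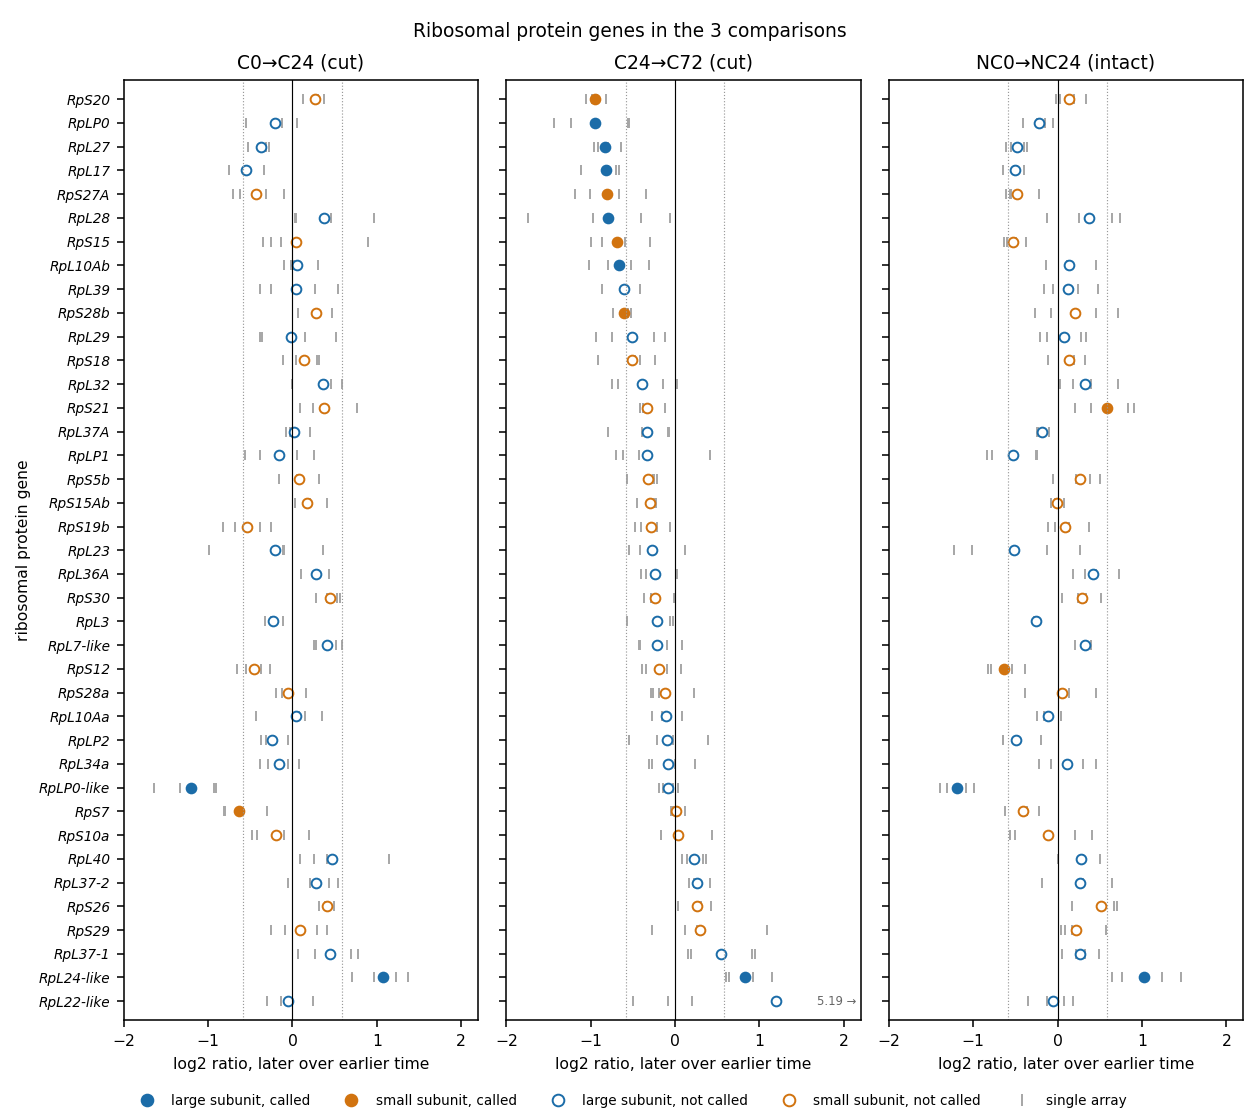
Log2 ratio (x axis) of each of the 39 ribosomal protein genes (y axis, ordered by C24→C72) in the 3 comparisons. Circles are fitted values, filled where called, blue for the large and orange for the small subunit, ticks are the 4 single arrays, dotted lines mark 1.5-fold, and a tick beyond the axis is written as its value. In C24→C72 30 of the 39 circles lie left of 0 and 9 of those are filled.

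The medians of single arrays show the same split. In C24→C72 the median of the 39 genes was -0.34, -0.28, -0.25 and -0.21 on the 4 arrays. All 4 lie below 0, while the median over all genes lay between 0.00 and 0.04 on these arrays. In C0→C24 the medians of the 39 genes were -0.11, 0.09, 0.05 and 0.25, and in NC0→NC24 they were 0.14, 0.34, -0.16 and -0.05. Both comparisons over the first 24 hours thus had arrays on either side of 0. In NC0→NC24 the replicates differed as a whole, with 31 of the 39 genes higher in replicate 1, against 48.3% of all genes. The replicate means of that comparison were centred on 0.26 in replicate 1 and on -0.11 in replicate 2. In C24→C72 the replicate medians were -0.36 and -0.16.

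**Figure D2:**
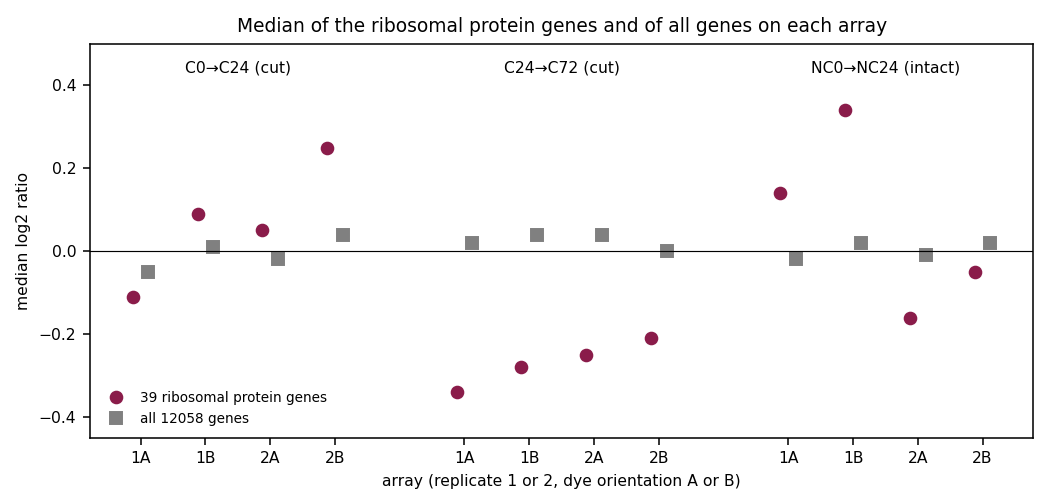
Median log2 ratio (y axis) of the 39 ribosomal protein genes (circles) and of all 12058 genes (squares) on each of the 12 arrays (x axis, replicate number and dye orientation). The 4 circles of C24→C72 lie between -0.34 and -0.21, and those of the other comparisons lie on both sides of 0.

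Of the 9 genes that fell in C24→C72, *RpS20*, *RpS15*, *RpS27A* and *RpS28b* belong to the small subunit. *RpS20*, a protein of the head of the small subunit, was at -1.06, -0.82, -0.92 and -0.99 on the 4 arrays. It was at 0.28, 0.30, 0.37 and 0.13 in C0→C24 and at 0.19, 0.34, -0.02 and 0.03 in NC0→NC24. Each array of C24→C72 is thus below every array of the first 24 hours. Those of C0→C24 are not separate evidence, since they share the 24-hour RNA with opposite sign. The fall was 1.93-fold (-0.95 ± 0.089, SE, limma adjusted p = 0.000958), the smallest adjusted p of the 39 genes in this comparison.

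*RpS27A* encodes ubiquitin fused to a small subunit protein, and is one of the genes from which cells draw ubiquitin. It was at -0.34, -1.01, -0.67 and -1.19 in C24→C72 and fell 1.74-fold (-0.80 ± 0.092, limma adjusted p = 0.00236). Both arrays of orientation B lie below both of orientation A. In the first 24 hours it was at -0.62, -0.31, -0.71 and -0.10 in C0→C24 and at -0.55, -0.56, -0.61 and -0.22 in NC0→NC24. All 12 values lie below 0, but the changes over 24 hours, -0.43 and -0.48, were under 1.5-fold.

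*RpS15*, another protein of the head of the small subunit, was at -0.30, -0.59, -0.86 and -1.0 in C24→C72 and fell 1.61-fold (-0.69 ± 0.15, limma adjusted p = 0.025). Without replicate 2 of C24→C72 its value was -0.45 with an adjusted p of 0.183, and without either replicate of NC0→NC24, which leaves the value but not the shared spread, the adjusted p was 0.0551. *RpS28b*, a small protein near the exit of the messenger RNA channel, was at -0.73, -0.56, -0.52 and -0.61, with a narrow spread among the arrays. Its fall of 1.52-fold (-0.60 ± 0.15, limma adjusted p = 0.0413) is the called change nearest to the fold threshold, and the call was lost without either replicate of C24→C72 (adjusted p = 0.197 and 0.129) or of C0→C24 (0.0974 for each). In the other comparisons *RpS28b* was at 0.06, 0.47, 0.29 and 0.29 in cut discs and at 0.45, 0.71, -0.08 and -0.27 in intact discs.

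The 5 genes of the large subunit that fell in C24→C72 were *RpLP0*, *RpL27*, *RpL17*, *RpL28* and *RpL10Ab*. *RpLP0* encodes the base of the stalk that recruits the translation factors with GTPase activity. It was at -0.56, -0.55, -1.23 and -1.44 and fell 1.93-fold (-0.94 ± 0.16, limma adjusted p = 0.00879). The 2 arrays of a replicate lie close together and the replicates lie far apart. Without replicate 2 of C24→C72 its value was -0.56, under 1.5-fold.

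*RpL27*, another protein of the large subunit, was at -0.91, -0.64, -0.96 and -0.80 and fell 1.77-fold (-0.83 ± 0.090, limma adjusted p = 0.00183). It was below 0 on all 4 arrays of C0→C24 and of NC0→NC24 as well, with changes of -0.37 and -0.48. *RpL17*, which lines the tunnel through which the new protein leaves, was at -1.12, -0.79, -0.67 and -0.70 and fell 1.77-fold (-0.82 ± 0.098, limma adjusted p = 0.00275). It was also below 0 on all 12 arrays, at -0.55 in C0→C24 and -0.51 in NC0→NC24. Its 2 probes gave -1.17 and -0.47 in C24→C72, so that the size of the fall differed between them and the direction did not.

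*RpL28* was at -0.97, -0.40, -1.74 and -0.06 in C24→C72. The 2 arrays of orientation A lie below both of orientation B. The fitted fall was 1.73-fold (-0.79 ± 0.099, limma adjusted p = 0.00297), but the arrays of orientation B alone gave -0.23 with an adjusted p of 0.391. *RpL10Ab*, the protein of the L1 stalk near the exit of spent transfer RNA, was at -0.80, -1.02, -0.31 and -0.52 and fell 1.58-fold (-0.66 ± 0.13, limma adjusted p = 0.0147). Both values of replicate 1 lie below both of replicate 2. Without replicate 1 of C24→C72 its value was -0.41, with an adjusted p of 0.114.

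All 9 genes that fell were below 0 on each of the 4 arrays of C24→C72. The call rests on the means of these same arrays, so this agreement in sign is not separate evidence. A single probe measured 8 of them. Across the 39 genes, which are not independent replicates, the dye-swapped arrays of C24→C72 correlated at Pearson's r = 0.669 and Spearman's rho = 0.582 in replicate 1. In replicate 2, where *RpL22-like* read 5.19 on array A, r was 0.27 and rho 0.518. The same r was 0.734 and 0.627 in the replicates of C0→C24 and 0.838 and 0.519 in those of NC0→NC24. Over all genes it was 0.438 and 0.2 in C24→C72, 0.844 and 0.721 in C0→C24 and 0.802 and 0.686 in NC0→NC24. Between replicate means r over all genes was 0.533 in C24→C72, 0.896 in C0→C24 and 0.85 in NC0→NC24. C24→C72 was thus the least reproducible comparison by r over all genes, and its calls use a spread shared with the others. When C24→C72 was fitted alone, without the spread of the other comparisons, 0 of the 39 genes were called, and the adjusted p of the 10 genes in question lay between 0.0638 and 0.155. That fit rests on 2 replicate means, and the share of all genes called in it is not given here. Limma's treat, which tests for changes beyond 1.5-fold, called 0 as well, and 6 were called, each of them lower, without replicate 2 of C24→C72.

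**Figure D3:**
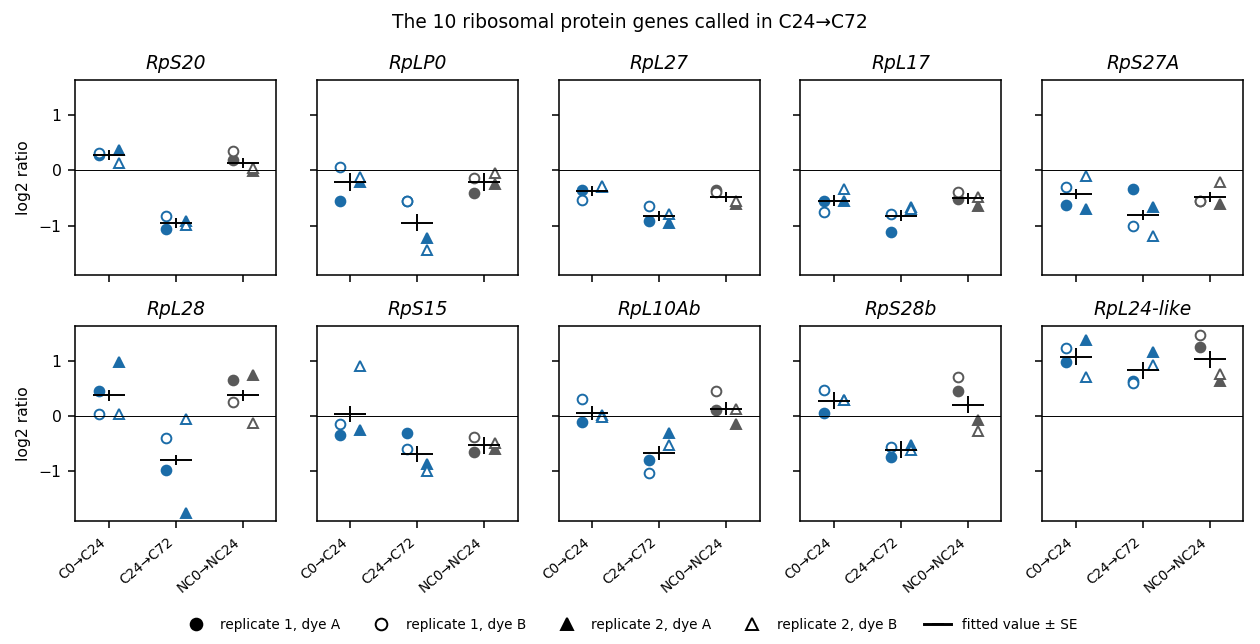
Log2 ratio (y axis) on each array for the 10 ribosomal protein genes called in C24→C72, in the 3 comparisons (x axis, cut discs in blue and intact discs in grey). Circles are replicate 1 and triangles replicate 2, filled for dye orientation A and open for B, and the bars are fitted values with their SE. In *RpS20* the arrays of C24→C72 lie between -1.06 and -0.82 and all others at or above -0.02, and *RpL24-like* lies above 0 on all 12 arrays.

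The 29 genes that were not called in C24→C72 ran between -0.61 and 1.20, with a median of -0.21, and 21 of them were below 0. At the low end stood *RpL39*, at -0.41, -0.86, -0.58 and -0.58 (-0.61, limma adjusted p = 0.0559). *RpL32*, known as *rp49* and widely used as a reference gene in measurements of fly RNA, was at -0.14, -0.68, 0.02 and -0.75. Both arrays of orientation B lie below both of orientation A. Its change was -0.39 (adjusted p = 0.0879), against 0.36 (0.0613) in C0→C24 and 0.33 (0.0943) in NC0→NC24, and no comparison called it. Under the fold threshold but past the adjusted p stood *RpS18*, at -0.51 (0.0317), and *RpL37-1*, at 0.55 (0.00683).

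At the other end *RpL24-like* rose in every comparison. It is the fly relative of yeast Rlp24, an assembly factor that holds the place of the ribosomal protein L24 on immature large subunits. It was at 0.97, 1.23, 1.37 and 0.71 in C0→C24, at 0.64, 0.60, 1.15 and 0.92 in C24→C72 and at 1.24, 1.46, 0.64 and 0.76 in NC0→NC24. All 12 values lie above 0, and the ranges of the comparisons overlap. The rises were 2.10-fold (1.07 ± 0.15, limma adjusted p = 0.000947), 1.77-fold (0.83 ± 0.15, 0.0134) and 2.03-fold (1.02 ± 0.15, 0.00154). In C24→C72 the call was lost without replicate 2, where the adjusted p was 0.109.

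*RpLP0-like* moved the other way. It is the relative of yeast Mrt4, an assembly factor that occupies the site of P0 until the stalk is built. It was at -0.93, -1.33, -1.64 and -0.91 in C0→C24 and at -1.31, -1.40, -1.09 and -0.99 in NC0→NC24, but at -0.19, 0.04, -0.03 and -0.14 in C24→C72. The arrays of the first 24 hours do not overlap those of C24→C72, and cut and intact discs overlap. It fell 2.30-fold in C0→C24 (-1.20 ± 0.097, limma adjusted p = 5.34e-05) and 2.29-fold in NC0→NC24 (-1.20 ± 0.097, 0.000111), and its change of -0.08 in C24→C72 was not called (adjusted p = 0.654). Its calls remained under each alternative run.

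The other calls of the first 24 hours were *RpS7*, *RpS12* and *RpS21*, all of the small subunit. *RpS7* was at -0.62, -0.80, -0.81 and -0.30 in C0→C24 and fell 1.55-fold (-0.63 ± 0.088, limma adjusted p = 0.000822). In NC0→NC24 it was at -0.41, -0.22, -0.62 and -0.37, which overlaps with the cut discs, and was not called (-0.41, adjusted p = 0.0102). Its 3 probes gave -1.38, 0.04 and -0.55 in C0→C24, so that a single probe carries much of the fall, and with the median of the probes the change of -0.55 was under 1.5-fold. The same value of -0.55 was left without replicate 1 of C0→C24.

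*RpS12* encodes a protein of the beak of the small subunit, by which disc cells are known to sense a shortage of ribosomal proteins in cell competition. It was at -0.55, -0.27, -0.65 and -0.37 in C0→C24, where it was not called (-0.46, limma adjusted p = 0.00295). In NC0→NC24 it was at -0.54, -0.82, -0.39 and -0.79 and fell 1.55-fold (-0.64 ± 0.081, limma adjusted p = 0.000719). Its 3 probes gave -0.61, -0.24 and -1.055 there, all below 0 but of different size. The cut and intact arrays overlap. *RpS21* was at 0.09, 0.24, 0.77 and 0.38 in C0→C24 (0.37, adjusted p = 0.0986) and at 0.84, 0.91, 0.39 and 0.21 in NC0→NC24, where it rose 1.50-fold (0.59 ± 0.14, adjusted p = 0.0183). Without replicate 1 of NC0→NC24 its value was 0.30 with an adjusted p of 0.364.

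Other members of the first 24 hours were not called. *RpS26* was at 0.405 in C0→C24 and at 0.515 in NC0→NC24 (limma adjusted p = 0.0166 and 0.00636). *RpLP1* and *RpLP2*, the acidic proteins at the tip of the stalk, were at -0.16 and -0.24 in C0→C24 and at -0.53 and -0.49 in NC0→NC24 (limma adjusted p = 0.00554 and 0.0249 in intact discs). *RpL23* was at -0.21 in C0→C24 and -0.52 in NC0→NC24, but its arrays ran from -0.99 to 0.36 in C0→C24 and from -1.23 to 0.27 in NC0→NC24. *RpL36A*, *RpS29* and *RpS30*, the last of which is made as a fusion to a ubiquitin-like protein, were at 0.28, 0.09 and 0.45 in C0→C24 and at 0.42, 0.21 and 0.28 in NC0→NC24. In limma's fit *RpS30* had an adjusted p of 0.00589 in C0→C24 and *RpL36A* of 0.0227 in NC0→NC24.

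Cut and intact discs were compared by subtracting each gene's NC0→NC24 change from its C0→C24 change. Of the 39 genes 0 were called in this difference by limma, where 0.0746% of all genes were called, and 0 were called with treat, with the replicate block or without any single replicate. At an unadjusted p under 0.05 stood 3 of the 39, or 7.69%, against 5.94% of all genes. They are *RpS19b* (-0.63, adjusted p = 0.288), *RpS15* (0.57, 0.729) and *RpLP1* (0.37, 0.754) in limma's fit.

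*RpS19b* is the copy of the RpS19 protein known for its use in the germ line. It was at -0.38, -0.82, -0.68 and -0.26 in C0→C24 and at 0.14, 0.37, -0.11 and -0.03 in NC0→NC24. The cut arrays lie below the intact arrays without overlap. *RpS15* was at -0.35, -0.14, -0.25 and 0.90 in C0→C24 and at -0.64, -0.38, -0.60 and -0.49 in NC0→NC24, where a single cut array stands apart. Across the 39 genes the changes in C0→C24 and NC0→NC24 had the same sign in 31 genes, and the share of all genes with the same sign is not given here. They correlated at r = 0.879 (n = 39 genes, r = 0.900 over 12058 genes), values that share the array platform and the probes.

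Over the whole period in cut discs, taken as the sum of C0→C24 and C24→C72, 4 of the 39 genes rose and 10 fell, where 9.43% of all genes were called higher and 7.40% lower. Those that rose were *RpL24-like* (1.90 ± 0.22, limma adjusted p = 0.000387), *RpL37-1* (1.0 ± 0.12, 0.000458), *RpL40* (0.70 ± 0.17, 0.0174) and *RpS26* (0.67 ± 0.14, 0.00891). *RpL40* is the other gene that encodes ubiquitin fused to a ribosomal protein, and *RpS26* lies near the messenger RNA exit of the small subunit. *RpL37-1* was at 0.06, 0.78, 0.27 and 0.69 in C0→C24 and at 0.91, 0.15, 0.95 and 0.19 in C24→C72. All 8 values are above 0, and orientation B is higher in the first period and orientation A in the second. Of the 2 ubiquitin fusions, *RpL40* was thus at 0.70 over 72 hours and *RpS27A* at -1.24.

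The deepest falls over 72 hours were those of *RpL17* (-1.37 ± 0.14, limma adjusted p = 0.000228), *RpLP0-like* (-1.28 ± 0.14, 0.000296), *RpS27A* (-1.24 ± 0.13, 0.000272), *RpL27* (-1.20 ± 0.13, 0.000285) and *RpLP0* (-1.16 ± 0.22, 0.00506). *RpS19b* was at -0.82 (adjusted p = 0.00504), though neither period alone called it. *RpS20*, *RpS12*, *RpS7* and *RpL10Ab* fell as well, with values between -0.68 and -0.61. The probes of *RpL17*, *RpS7* and *RpS12* differed widely. Those of *RpL17* gave -1.01 and -0.09 in C0→C24 and -1.17 and -0.47 in C24→C72. Those of *RpS7* gave -1.38, 0.04 and -0.55 in C0→C24 and -0.35, 0.09 and 0.31 in C24→C72. Those of *RpS12* gave -0.32, -0.11 and -0.95 in C0→C24 and -0.395, 0.115 and -0.29 in C24→C72. *RpS20* and *RpL10Ab* were at 0.27 and 0.05 in the first period and fell in the second, whereas *RpS7* and *RpS12* were at 0.02 and -0.19 in the second. Without replicate 1 of C0→C24 the calls of *RpLP0* (adjusted p = 0.0586), *RpS19b* (0.0599), *RpS26* (0.0686), *RpS7* (0.0697) and *RpL10Ab* (0.128) were lost, and without replicate 2 those of *RpS26* (0.0618), *RpL40* (0.137) and *RpL10Ab* (0.182). Without replicate 1 of C24→C72 those of *RpL40* (0.0826) and *RpL10Ab* (0.15) were lost, and without replicate 2 *RpS26* was at 0.58, under 1.5-fold.

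In C24→C72 the median was -0.24 over the 23 large subunit genes and -0.29 over the 16 small subunit genes, and 5 of the 23 and 4 of the 16 fell. This order depends on the -like genes, all of which are counted with the large subunit. Without them the large subunit median was -0.33 over 19 genes. Over single-copy families alone it was -0.33, against -0.29 for the small subunit. In C0→C24 the medians were 0.02 and 0.08, and in NC0→NC24 they were 0.07 and 0.11. The large minus small difference of the medians had no fixed sign, at -0.12, -0.04, 0.28 and 0.18 on the 4 arrays of C24→C72 and at -0.01, -0.10, 0.08 and -0.24 on those of C0→C24. In NC0→NC24 it was -0.04, -0.12, -0.14 and -0.04, below 0 on all 4 arrays. Over single-copy families alone the medians of NC0→NC24 were further apart, at -0.19 over 13 large subunit genes and 0.135 over 10 small subunit genes, and the difference of the medians was -0.32.

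Of the 39 genes 12 have a symbol that ends in a, b, A or B. In 9 of them the lower-case letter marks a gene copy, while *RpL36A*, *RpL37A* and *RpS27A* are protein names and no copies. The 12 had a median of -0.29 in C24→C72, with 3 that fell (*RpL10Ab*, *RpS28b* and *RpS27A*), and the other 27 a median of -0.24, with 6 that fell. In C0→C24 and in NC0→NC24 limma called 0 of the 12 (0 also with the replicate block and 3 at an unadjusted p under 0.05 in each). Counted by protein family, with the -like genes taken as copies, 16 of the 39 belong to families with more than a single gene copy. The other 23 belong to families with one. The medians of the 16 and the 23 in C24→C72 were -0.12 and -0.33, with 3 of 16 and 6 of 23 lower. Without the 4 -like genes, some of them relatives of assembly factors, the median of the first group was -0.205 over 12 genes, with 3 lower.

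For 4 families at least 2 copies were measured, with *RpLP0-like* counted as a copy of *RpLP0*. In the L10A family *RpL10Ab* fell in C24→C72, whereas *RpL10Aa* was at -0.27, -0.09, 0.08 and -0.16 on the same arrays (-0.11, limma adjusted p = 0.561). The 2 sets of values do not overlap, with -0.31 as the highest of *RpL10Ab* and -0.27 as the lowest of *RpL10Aa*, and *RpL10Ab* was lower on each array, by 0.55 in the mean. In the first 24 hours the copies overlapped in both kinds of disc.

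In the S28 family *RpS28b* fell in C24→C72, and *RpS28a* was at -0.19, -0.28, 0.23 and -0.26 (-0.12, limma adjusted p = 0.513). *RpS28b* was lower on each of the 4 arrays, by between 0.28 and 0.75, again without overlap. In C0→C24 and NC0→NC24 the 2 copies overlapped. Whether each oligonucleotide tells its copy from the other was not tested.

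*RpLP0-like* and *RpLP0* ran apart in all 3 comparisons. *RpLP0* was at -0.55, 0.05, -0.22 and -0.13 in C0→C24 and at -0.41, -0.15, -0.25 and -0.05 in NC0→NC24, each value above those of *RpLP0-like*. The order was turned in C24→C72, where *RpLP0-like* was higher by 0.86 in the mean and by at least 0.37 on each array. *RpL37-1* and *RpL37-2* overlapped in every comparison, and *RpL37-2* was at 0.28 in C0→C24, at 0.26 in C24→C72 and likewise at 0.26 in NC0→NC24, with no call.

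**Figure D4:**
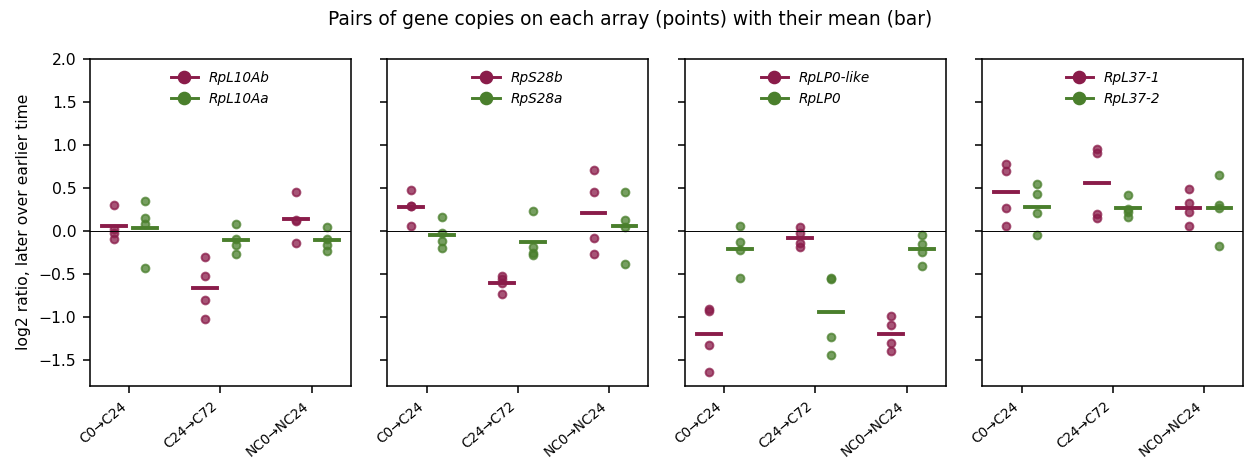
Log2 ratio (y axis) of 4 pairs of gene copies on each array (points) with the mean of the 4 arrays (bars), in the 3 comparisons (x axis). *RpL10Ab* and *RpS28b* lie below their copies without overlap in C24→C72, *RpLP0-like* lies below *RpLP0* in C0→C24 and NC0→NC24 and above it in C24→C72, and the *RpL37* copies overlap throughout.

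The remaining members of such families were measured without their partner. *RpS5b*, *RpS10a*, *RpS15Ab* and *RpL34a*, which make proteins of the small subunit and, in the last case, of the large one, were at 0.07, -0.20, 0.17 and -0.16 in C0→C24, at -0.32, 0.04, -0.29 and -0.09 in C24→C72 and at 0.26, -0.12, -0.01 and 0.11 in NC0→NC24, with no call. *RpL7-like*, a relative of the yeast assembly factor Rlp7, was at 0.41 in C0→C24, at -0.21 in C24→C72 and at 0.33 in NC0→NC24. *RpL22-like*, the copy of RpL22 enriched in germ cells, was at 0.20, -0.08, 5.19 and -0.50 in C24→C72. A single array thus sets its mean of 1.20, which was not called (adjusted p = 0.1 in limma).

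Genes that assemble ribosomes were called mostly in the first 24 hours. Of 34 measured ribosome assembly factors 16 fell and 2 rose in C0→C24, 1 fell and 2 rose in C24→C72, and 14 fell and 2 rose in NC0→NC24. Over all genes 4.94% were called lower and 6.12% higher in C0→C24, 1.58% and 1.36% in C24→C72, and 3.85% and 5.14% in NC0→NC24, and the counts of the lists below stand beside the same shares. The medians of the assembly factors were -0.54, -0.02 and -0.42, against 0.04, -0.28 and 0.09 for the ribosomal protein genes. *NHP2* of the box H/ACA particles and *hoip* and *Nop56* of the box C/D particles, which modify ribosomal RNA, fell in both, to -1.21, -1.12 and -1.18 in C0→C24 and to -1.24, -1.15 and -1.27 in NC0→NC24. *Non1*, a GTPase of large subunit assembly, and *LTV1*, a factor of small subunit maturation, rose in all 3 comparisons, by 2.30 and 1.85 in C0→C24, by 1.44 and 0.77 in C24→C72 and by 2.24 and 1.80 in NC0→NC24. Among these genes limma's adjusted p lay between 1.68e-05 (*Non1* in C0→C24) and 0.00924 (*LTV1* in C24→C72).

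**Figure D5:**
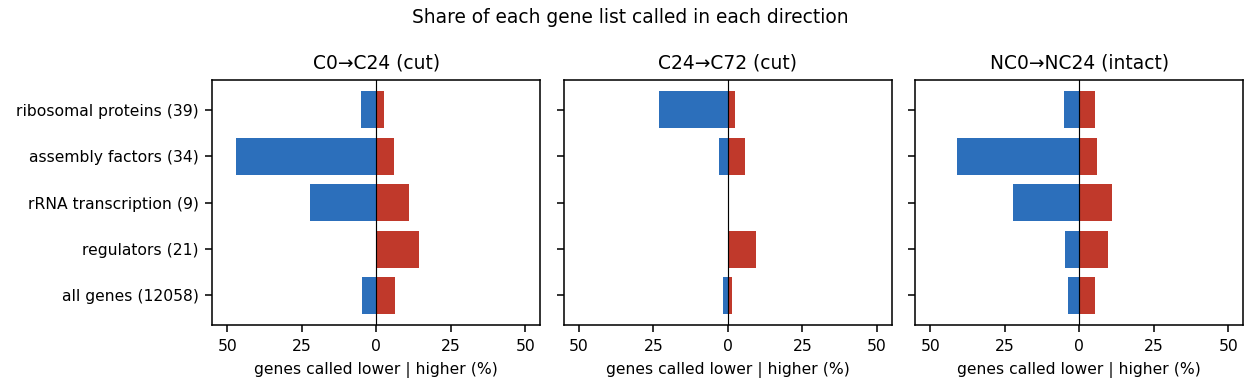
Share of the genes of each list (y axis, number measured in parentheses) called lower (blue, left) or higher (red, right) in the 3 comparisons, in percent (x axis). Assembly factors were called lower mostly over the first 24 hours, 16 of 34 in C0→C24 and 14 of 34 in NC0→NC24, and ribosomal protein genes in C24→C72, 9 of 39.

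Of 9 genes for transcription of ribosomal RNA *Polr1B* and *Polr1E*, subunits of RNA polymerase I, fell over 24 hours in both kinds of disc. *Polr1B* was at -0.78 in C0→C24 and -0.77 in NC0→NC24, and *Polr1E* at -0.93 and -0.80. *udd*, which encodes a factor for transcription of ribosomal RNA in the germ line, rose by 0.93 in C0→C24 and by 0.79 in NC0→NC24, and limma called 0 of the 9 in C24→C72, with 2 at an unadjusted p under 0.05. Among 21 regulators of ribosomal protein genes and of growth, *REPTOR-BP* rose by 1.84 in C0→C24, by 0.71 in C24→C72 and by 1.79 in NC0→NC24. It encodes the partner of REPTOR, a factor held back by TOR complex 1. *gig*, which encodes the TOR inhibitor TSC2, rose by 0.59, 0.62 and 0.66, *REPTOR* rose in C0→C24 (0.66), and *Dref* fell in NC0→NC24 (-0.61). *M1BP* was at -0.48 in C0→C24, at 0.00 in C24→C72 and at -0.52 in NC0→NC24, under 1.5-fold.

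Of 15 genes known to respond to the loss of ribosomal proteins 6 rose in C0→C24, 1 rose and 3 fell in C24→C72, and 5 rose in NC0→NC24. Of all genes 6.12%, 1.36% and 5.14% were called higher in these comparisons, and 1.58% lower in C24→C72. *Irbp18*, the bZIP partner of Xrp1, rose by 1.11 in C0→C24 and by 1.09 in NC0→NC24. *crc*, the fly ATF4, rose by 0.87 in early and 0.70 in late regeneration and by 0.69 in NC0→NC24. *Gadd45*, a stress gene, rose by 2.03 in C0→C24 and by 1.08 in NC0→NC24 and fell to -1.25 in C24→C72. *SPARC* rose by 1.80 in C0→C24 and by 1.03 in NC0→NC24. *GstE6* rose by 1.59 in C0→C24 and by 2.05 in NC0→NC24 and fell to -1.54 in C24→C72. *Rack1*, a protein of the small subunit outside the naming rule, was at 0.33 in C0→C24, at -0.26 in C24→C72 and at 0.41 in NC0→NC24, and limma called it in none. Of 4 elongation factors *eEF1delta* fell in C0→C24 (-1.32) and NC0→NC24 (-1.41), *eEF1alpha2* rose in C0→C24 (0.90, limma adjusted p = 0.00981), and in C24→C72 limma called 0, with 2 at an unadjusted p under 0.05.

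Markers of other cells moved beside these results, and as ratios they tell of changes and not of presence. Of 7 fat body genes 3 rose in C0→C24 and 2 fell in C24→C72 (*Lsp2* at -2.20 and *Fbp2* at -0.76). The list was split in C24→C72, with 4 genes below 0 and 3 above. Those above were the yolk protein genes *Yp1* (1.13), *Yp2* (0.55) and *Yp3* (1.86), which were not called. All 7 stood there at an unadjusted p under 0.05 in limma's fit, a cut for which the share of all genes is not given here. In NC0→NC24 limma called 0, with 2 at an unadjusted p under 0.05. Of 9 hemocyte genes 7 rose in C0→C24, 1 fell in C24→C72 (*Col4a1* at -0.75) and 3 rose in NC0→NC24. Of 13 genes listed for the ovary and female germ line 1 fell in C0→C24 and 1 in NC0→NC24, where 4.94% and 3.85% of all genes were called lower. In C24→C72 2 rose, *Fs(2)Ket* (0.91) and *Vm34Ca* (0.63), where 1.36% of all genes were called higher. Whether these genes are confined to such cells was not tested. Of 7 testis genes limma called 0 in each comparison, with 0, 1 and 0 at an unadjusted p under 0.05 in C0→C24, C24→C72 and NC0→NC24. Of 5 muscle genes 1 rose in C0→C24 and in NC0→NC24, and of 7 wing disc genes 1 fell in C0→C24 (*nub* at -0.64). In C24→C72 limma called 0 of either list. There all 5 muscle genes lay above 0, between 0.095 and 0.515, with 2 at an unadjusted p under 0.05, and 6 of the 7 wing disc genes lay below 0, between -0.31 and 0.04 over all 7, with 3 at an unadjusted p under 0.05. The part of such cells in the changes of the ribosomal protein genes was not tested.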

How the data were processed

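For each spot of the 2-colour oligonucleotide arrays the authors deposited a ratio of the dyes, read here as log2 and normalized with OLIN within each set of 4 arrays. Raw intensities were not used here. Dye-swapped arrays correlate positively, so both are turned the same way, but this sets neither base nor direction. Base 2 was assumed, and later over earlier time is likely from the signs of genes that the study lists as changed in cut discs. For intact discs the same direction was assumed. The authors also used limma, whose version is not given in the sources used here.

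Of 16416 probes 13164 had 1 symbol, updated through the Release 6 gene table, 101 had several and 3151 had none. Probes were averaged per gene and dye swaps per replicate, and limma 3.58.1 under R 4.3.3 was fitted to 6 replicate means with 3 residual degrees of freedom, after tests on simulated data. No value is missing, and the number of arrays limits precision. The labels call the replicates biological, and p-values measure only the spread between these samples.

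The members and all gene lists were chosen with earlier results of these data known. Genes named are all members called in any contrast, the 4 largest and 4 smallest changes in each, all members of families with several copies, and, for the lists, some genes of low adjusted p. *RpL39*, *RpL32*, *RpS18*, *M1BP*, *SPARC*, *GstE6* and the yolk protein genes were added after their values were seen. Alternatives changed the fold threshold, the test, the values and comparisons fitted, the replicate block, the scale of the arrays, the treatment of probes, moderation, membership and the replicates. Arrays of a single dye orientation were added after seeing the data.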

Additional observations from a re-analysis of the deposited data

Results flagged for a closer look

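Among 108 sets of 4 arrays, 6 had an array far from the other 3, and chance gives about 1 such set in 20. *RpL22-like* stood at 5.19 on array A of replicate 2 in C24→C72, against values between -0.50 and 0.20 on the other 3, whose mean was -0.13. *RpS15* stood at 0.90 on array B of replicate 2 in C0→C24, against values between -0.35 and -0.14. *RpS27A* stood at -0.22 on array B of replicate 2 in NC0→NC24, against values between -0.61 and -0.55. *RpS21* and *RpS5b* stood at -0.12 and -0.57 on array A of replicate 1 in C24→C72, against values between -0.42 and -0.38 and between -0.26 and -0.21. The median of the large subunit genes was -0.11 on array A of replicate 1 in C0→C24, with the other 3 between 0.05 and 0.08.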

How the results depend on the processing

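Of 589 values of single called genes under an alternative, 487 kept their call, 102 lost it and 0 changed direction. The number of the 39 genes called was 3 in C0→C24, 10 in C24→C72, 14 over 72 hours in cut discs, 0 in the difference of cut and intact discs and 4 in NC0→NC24. At 2-fold it was 0 in C24→C72, 7 over 72 hours and 2 in NC0→NC24, and with no fold threshold 14 in C0→C24 and 16 in NC0→NC24 (C24→C72 had 12). Limma's treat gave 1, 0, 5 and 1 in C0→C24, C24→C72, over 72 hours and in NC0→NC24. With each comparison fitted alone 0 were called in C24→C72. With each probe on its own 6 were called in C0→C24 and 7 in NC0→NC24. Without the -like genes these counts were 1 and 2. With single-copy families alone they were 1 and 2, with 6 in C24→C72 and 8 over 72 hours, and the large minus small subunit median was -0.13 in C0→C24 and -0.32 in NC0→NC24, against -0.06 and -0.04. Arrays of orientation A alone gave 7 in C0→C24 and 7 in NC0→NC24. Those of orientation B alone gave 4 in C24→C72, 8 over 72 hours and a large minus small median of -0.14 in C0→C24. Leaving out a replicate gave 3 to 4 in C0→C24, 6 to 11 in C24→C72, 9 to 16 over 72 hours and 3 to 7 in NC0→NC24, with 7 without replicate 2 of NC0→NC24, 6 without replicate 2 of C24→C72 and 9 without replicate 1 of C0→C24. In that last case the large minus small median in C0→C24 was -0.10. The cause of these changes was not tested. The replicate block left 3, 10, 13, 0 and 4 genes called, and *RpL10Ab* over 72 hours (adjusted p = 0.0546) was the only call it changed. Whether the replicate numbers pair the samples cannot be told from these values. Over all genes the differences between replicates correlate at -0.12 between NC0→NC24 and C0→C24, at 0.0154 between NC0→NC24 and C24→C72 and at -0.0806 between C0→C24 and C24→C72, which share RNA of 24 hours. Over the 39 genes these values are -0.418, -0.0579 and -0.423. Shares of all genes are given above for the main setting and, in the 3 comparisons, without a fold threshold. For the other alternatives they are not given, so those counts cannot be set against other genes. With 2 replicates a comparison, 53 members not analysed and a likely but unstated direction, the counts describe these arrays.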
